A study of Mus musculus with 12 samples.

Results

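Astrocytes are the glial cells that keep the surroundings of neurons constant. The 10 genes described here, Aqp4, Mlc1, S100b, Ntsr2, Slc4a4, Slc1a2, Slc1a3, Glul, Aldoc and Aldh1l1, are ones that resting, or homeostatic, astrocytes express. They were chosen by name, and a gene was measured where a probe set of the array is annotated to that gene alone. All 10 were measured, of 17656 genes measured in all, and the brightest such probe set stood for each gene. Their expression was compared between 6 chronic social defeat (CSD) and 6 homecage (HC) samples of the medial prefrontal cortex (mPFC), each sample taken as 1 mouse and measured on 1 Affymetrix Mouse Gene ST array. All mice were adult wild-type C57BL/6 males. A CSD mouse lived beside a dominant CD-1 male behind a perforated partition for 14 days and met it for 5 min each day, whereas HC mice were group-housed, and dissection followed 24 h after the final encounter. CSD mice entered the study only if social interaction and light/dark tests showed an effect of defeat, so they stand for affected mice. The age in weeks is not given in the sources used here. CSD mice thus differed from HC mice in housing as well as in defeat, and these cannot be told apart.

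Astrocytes clear glutamate from the synaptic cleft through Slc1a2 (GLT-1) and Slc1a3 (GLAST), turn it into glutamine with the enzyme Glul, and return the glutamine to neurons. Their endfeet enclose the blood vessels and carry the water channel Aqp4 and the membrane protein Mlc1, which take part in water and volume control. The other genes of the set serve acid-base balance (Slc4a4), calcium binding (S100b), peptide signaling (Ntsr2), glycolysis (Aldoc) and folate metabolism (Aldh1l1). In whole tissue, fewer cells of a type and less RNA per cell cannot be told apart.

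The values are log2 expression after robust multi-array averaging (RMA), which puts the arrays on a common scale. Differences are CSD minus HC in log2 units, fitted with limma across all 29838 probe sets above system noise, and a gene was called where its fold change reached 1.2 and its adjusted p lay under 0.05. No probe set was called, 0% of those tested. The array of HC replicate 2 had the highest median of all values, 7.69, against 7.50 to 7.63 on the other arrays. The reported differences come from a fit without array weights. In an alternative fit limma weighted the arrays, and HC replicates 2 and 6 had the least weight, at 0.259 and 0.397. With these weights the median difference over the homeostatic astrocyte genes was −0.06, against −0.08 without them. Over all genes it was 0.0033 with the weights and −0.010 without them. For each gene of the set the difference without HC replicates 2 and 6 together is given too.

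No homeostatic astrocyte gene passed the adjusted test, and most had slightly lower means in CSD mice. Taken from the log2 means, that is as geometric means, S100b, Ntsr2 and Aqp4 differed by −11.6%, −9.90% and −11.9%, each at an unadjusted p under 0.05. The glutamate transporter Slc1a2, the glutamine enzyme Glul and the glycolytic enzyme Aldoc had differences between −0.0033 and 0.05 log2 units. For 8 of the 10 genes the CSD mean was below the HC mean and for 2 above it, where 57.1% of all measured genes had the lower mean in CSD. At an unadjusted p under 0.05 in limma 3 of 10 were lower, against 6.52% of all genes, and 0 were higher, against 1.89%. The methods' t-test gave the same count of 3 lower genes (6.39% of all genes). None of the 10 was called by limma, and 0 were called by the methods' t-test after adjustment. None of the 3 reached the fold change of 1.2, which 0.6% of all genes reached on the lower side at that p. The median difference over the 10 genes was −0.08, against −0.01 over all genes. Without HC replicates 2 and 6 it was −0.04, against 0.01 over all genes. Among the 6259 genes at least as bright as the dimmest of the 10, which is Aldh1l1, 10.02% were lower at an unadjusted p and the median difference was −0.02.

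**Figure D1:**
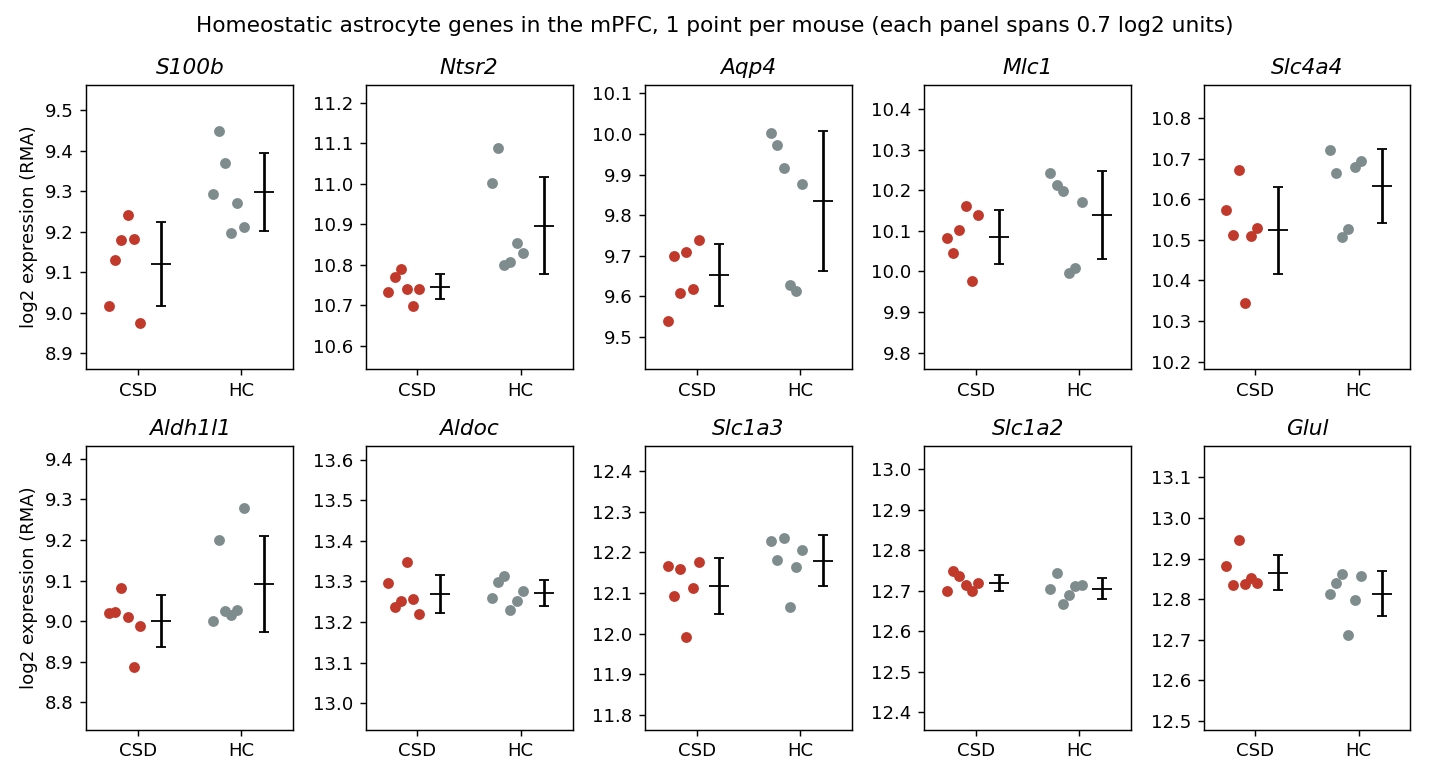
Log2 expression (RMA, vertical axis) of the 10 homeostatic astrocyte genes, with CSD mice in red left of HC mice in grey, 1 point per mouse in order of replicate number, and bars for the group mean ± SD (n = 6 each). All CSD points of Ntsr2 lie below all HC points, and the HC points of Aqp4 and Mlc1 form a higher group of 4 and a lower group of 2.

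S100b, a calcium-binding protein of astrocytes that some oligodendrocytes also make, had the smallest p of the set in limma over all mice, whereas Ntsr2 had the smallest in the exact permutation test. Its lowest, median and highest log2 values were 8.97, 9.15 and 9.24 in CSD mice, against 9.20, 9.28 and 9.45 in HC mice. In 5 of the 6 CSD mice S100b lay below every HC mouse, and the sixth, CSD replicate 8, lay within the HC range. The difference of S100b was −0.18 (standard error 0.06, 95% interval −0.30 to −0.06, unadjusted p = 0.00812 and adjusted p = 0.383 from limma). An exact permutation test of S100b over the 924 splits of the mice, two-sided, gave p = 0.0108. It ranked as the 395th gene of 17656 by p. Without HC replicates 2 and 6 together the difference of S100b was −0.16.

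Ntsr2, a receptor for the peptide neurotensin that the brain expresses mainly in astrocytes, was the gene of the set whose groups did not overlap. Log2 values of Ntsr2 ran over 10.70, 10.74 and 10.79 (lowest, median and highest) in CSD mice, against 10.80, 10.84 and 11.09 in HC mice. A full separation in this direction was found for 0.935% of all genes, and here the gap between the groups was about 0.01 log2 units wide. The CSD mice were close together (SD 0.03, n = 6), while HC replicates 1 and 2 stood above the other HC mice at 11.001 and 11.09 (SD 0.12, n = 6). The difference of Ntsr2 was −0.15 (standard error 0.05, 95% interval −0.26 to −0.04, adjusted p = 0.428 from limma). Its exact permutation p, two-sided, was 0.00216, the smallest that 6 against 6 mice allow. Without HC replicates 2 and 6 the difference of Ntsr2 was −0.12 (adjusted p = 0.475 from limma), with an unadjusted p of 0.0185 in limma. A full separation in the other direction was found for 0 of the 10 genes and for 0.0793% of all genes.

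Aqp4, the water channel of the endfeet, had a difference of about the size of that of S100b, and which of them was larger turned with the mice left out. Its lowest, median and highest log2 values were 9.54, 9.66 and 9.74 in CSD mice, against 9.61, 9.90 and 10.002 in HC mice. Of the HC mice, replicates 1, 2, 3 and 6 lay above every CSD mouse, between 9.88 and 10.002, whereas HC replicates 4 and 5, at 9.63 and 9.61, lay among the CSD mice. The difference of Aqp4 was −0.18 (standard error 0.07, 95% interval −0.34 to −0.03, unadjusted p = 0.0255 and adjusted p = 0.513 from limma), and its exact permutation p, two-sided, was 0.0433. Leaving out HC replicate 1, 2 or 3 or CSD replicate 2 gave an unadjusted limma p for Aqp4 of 0.0614, 0.0574, 0.0530 or 0.0571, and leaving out HC replicates 2 and 6 together gave 0.114. The difference of Aqp4 without HC replicates 2 and 6 together was −0.14.

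Mlc1, a membrane protein of the endfeet whose loss in humans causes a leukodystrophy with brain swelling, was high and low in the same HC mice as Aqp4. Log2 values of Mlc1 ran over 9.98, 10.09 and 10.16 in CSD mice, against 9.996, 10.18 and 10.24 in HC mice (lowest, median and highest). HC replicates 4 and 5 were again the lowest HC mice, at 9.996 and 10.01. After the mean of each group was removed, Mlc1 and Aqp4 correlated at r = 0.86 over the 12 arrays, the highest of the 45 pairs of the set. The CSD mice matched less closely. CSD replicate 2 had the lowest Aqp4, 9.54, with Mlc1 at 10.08, and CSD replicate 9 had the lowest Mlc1, 9.98, with Aqp4 at 9.62. The difference of Mlc1 was −0.05 (standard error 0.05, 95% interval −0.17 to 0.06, adjusted p = 0.847 from limma, exact permutation p = 0.318). It was −0.03 without HC replicate 1, without CSD replicate 9 or without HC replicates 2 and 6 together, and −0.08 without HC replicate 4. Whether Aqp4 and Mlc1 differed in their response was not tested.

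Slc4a4, the sodium bicarbonate cotransporter through which astrocytes regulate pH, had a difference between those of Mlc1 and Aqp4. Its lowest, median and highest log2 values were 10.34, 10.52 and 10.67 in CSD mice, against 10.51, 10.67 and 10.72 in HC mice. In 5 of 6 CSD mice Slc4a4 lay below the HC mean, yet the ranges overlapped. The difference of Slc4a4 was −0.11 (standard error 0.06, 95% interval −0.23 to 0.01, adjusted p = 0.659 from limma, exact permutation p = 0.0974). Its unadjusted limma p was 0.0770 over all mice and 0.0377, 0.0468 or 0.0270 without HC replicate 3, HC replicate 4 or CSD replicate 7. The difference of Slc4a4 without HC replicates 2 and 6 together was −0.09.

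In the 3 genes of the glutamate and glutamine cycle the ranges of CSD and HC mice overlapped. For Slc1a2, the main glutamate transporter of the forebrain, the lowest, median and highest log2 values were 12.70, 12.72 and 12.75 in CSD mice, against 12.67, 12.71 and 12.74 in HC mice. The difference of Slc1a2 was 0.01 (standard error 0.03, 95% interval −0.04 to 0.07, adjusted p = 0.934 from limma, exact permutation p = 0.314), which as a fold of CSD over HC is an interval of 0.970 to 1.05. When mice were left out it ran between 0.0064 without HC replicate 3 and 0.03 without HC replicates 2 and 6, and was 0.02 without HC replicate 2 and 0.0083 without CSD replicate 6.
Slc1a3, the transporter that also marks immature astrocytes and radial glia, had log2 values of 11.99, 12.14 and 12.18 in CSD mice, against 12.06, 12.19 and 12.24 in HC mice (lowest, median and highest). Every CSD mouse lay below the HC mean of Slc1a3, at a difference of −0.06 (standard error 0.04, 95% interval −0.15 to 0.03, adjusted p = 0.762 from limma, exact permutation p = 0.128). Without CSD replicate 8, the lowest mouse, the difference of Slc1a3 was −0.04, and without HC replicates 2 and 6 together it was −0.06.
Glul, which makes glutamine from glutamate and ammonia, had the higher mean in CSD mice. Its lowest, median and highest log2 values were 12.83, 12.85 and 12.95 in CSD mice, against 12.71, 12.83 and 12.86 in HC mice. Each of the 6 CSD mice exceeded the HC mean of Glul, at a difference of 0.05 (standard error 0.04, 95% interval −0.02 to 0.13, adjusted p = 0.766 from limma, exact permutation p = 0.0974). Without HC replicate 4, the lowest mouse, the difference of Glul was 0.03, and without HC replicates 2 and 6 together it was 0.07. A second probe set annotated to Glul alone gave 12.83 ± 0.04 in CSD mice and 12.83 ± 0.04 in HC mice (SD, n = 6 each), a difference of 0.0032 with CSD mice on both sides of the HC mean.

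The ranges also overlapped for both metabolic enzymes of the set. Aldoc, the aldolase of astrocytes, had log2 values of 13.22, 13.25 and 13.35 in CSD mice, against 13.23, 13.27 and 13.31 in HC mice (lowest, median and highest). The difference of Aldoc was −0.0033 (standard error 0.03, 95% interval −0.07 to 0.07, adjusted p = 0.989 from limma, exact permutation p = 0.887), and its sign turned when single mice were left out. Aldh1l1, an enzyme of folate metabolism whose promoter is used to label astrocytes, had log2 values of 8.89, 9.02 and 9.08 in CSD mice, against 9.0004, 9.03 and 9.28 in HC mice (lowest, median and highest). HC replicates 2 and 6 held the high Aldh1l1 values, 9.20 and 9.28, and the other 4 HC mice lay between 9.0004 and 9.03. The difference of Aldh1l1 was −0.09 (standard error 0.05, 95% interval −0.21 to 0.03, adjusted p = 0.731 from limma, exact permutation p = 0.162), and it was −0.05 without HC replicate 6 and −0.02 without HC replicates 2 and 6.

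**Figure D2:**
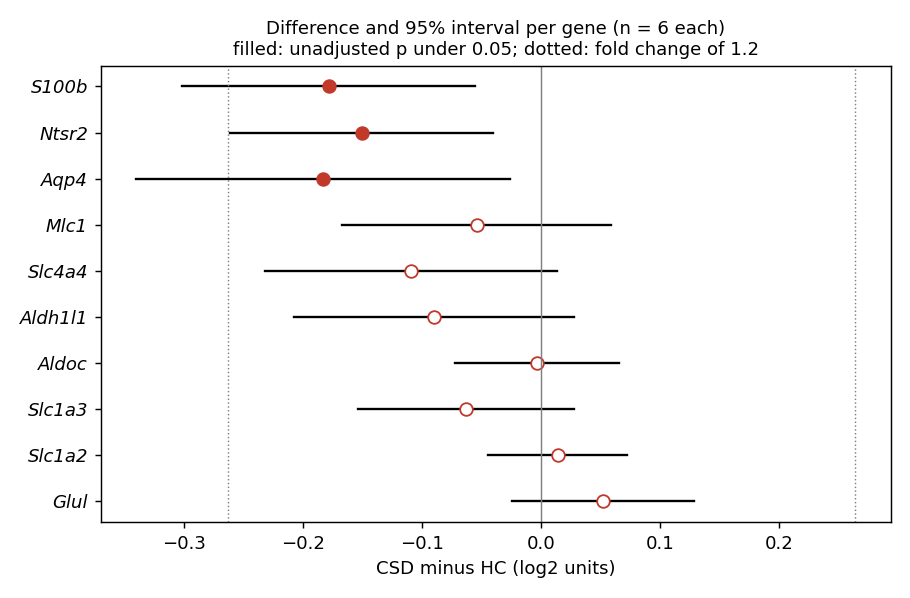
Difference in log2 units (CSD minus HC, horizontal axis) of each homeostatic astrocyte gene from limma, with its 95% interval (n = 6 each). The intervals of S100b, Ntsr2 and Aqp4 lie below 0, and those of the other 7 genes hold 0. Filled points have an unadjusted p under 0.05, and the dotted lines stand at a fold change of 1.2.

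The set holds some of the brightest genes of the array. The signals of Slc1a2, Slc1a3, Glul and Aldoc lay above the 98th percentile of all measured genes, a rank of array signal and not of transcript amount. Their differences ran between −0.06 and 0.05 and their SD within a group between 0.02 and 0.07. For the other 6 genes the differences ran between −0.18 and −0.05 and the SD between 0.03 and 0.17. Of the 354 genes above that percentile, 17 were lower at an unadjusted p under 0.05 in limma (4.80%, against 6.52% of all genes). At the same p 14 of the 354 were higher, against 1.89% of all genes, and the highest value on any array was 14.13. The part of signal brightness in these differences was not tested.

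Within groups most pairs of the homeostatic astrocyte genes had a positive correlation. Pairs of genes outside the set were not compared, so this is not shown to be particular to the set. After group means were removed, 39 of the 45 pairs had a positive correlation over the 12 arrays, with a median r of 0.33. The lowest pair was Aldoc with Slc4a4, at r = −0.42. HC replicate 4 lay below the HC mean for all 10 genes and HC replicate 2 above it for all 10, and HC replicate 2 is also the array with the highest overall median. Compared with the HC mean, the average deviation over the 10 genes was −0.11 to −0.03 on the CSD arrays, against −0.10 to 0.08 on the HC arrays, so that the CSD arrays lay within or just beyond the lower part of the HC range.
The genes outside the set with the profile most like it, by Pearson's r with the mean of the standardized values of the 10 genes within groups over 12 arrays, were Slc7a11 (r = 0.94), Zfand1 (0.92), Ndufaf4 (0.92), Rnaseh2a (0.92) and Nat8f1 (0.92). Slc7a11, the cystine and glutamate exchanger of astrocytes, had a difference of −0.0054 between CSD and HC mice (adjusted p = 0.994 from limma). These 5 genes are the highest of all genes searched and come from the same arrays as the set.

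Promoters are shown for S100b and Ntsr2, which were lower at an unadjusted p, and for Glul, which was not, each a gene with a single start in the table. They were taken from RefSeq (build GRCm38.p6), 5′ to 3′ on the plus strand. Each runs up to the base before the first annotated transcript start. Capitals mark TTGGC, an arm of the binding site of nuclear factor I (NFI), a family of factors that includes regulators of astrocyte genes, and CCAAT, the CCAAT box, on either strand. Where the letters GCCAAT or ATTGGC occur the motifs overlap.
S100b, chr10:76253586-76253835: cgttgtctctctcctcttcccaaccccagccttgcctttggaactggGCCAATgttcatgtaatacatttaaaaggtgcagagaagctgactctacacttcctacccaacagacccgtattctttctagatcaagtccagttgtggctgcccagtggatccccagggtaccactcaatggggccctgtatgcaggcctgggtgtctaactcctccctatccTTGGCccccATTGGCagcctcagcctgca
Ntsr2, chr12:16653220-16653442: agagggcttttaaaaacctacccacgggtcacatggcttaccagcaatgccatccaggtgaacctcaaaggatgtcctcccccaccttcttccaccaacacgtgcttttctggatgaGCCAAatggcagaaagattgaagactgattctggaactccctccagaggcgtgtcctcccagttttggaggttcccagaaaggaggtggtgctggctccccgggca
Glul, chr1:153899679-153899928: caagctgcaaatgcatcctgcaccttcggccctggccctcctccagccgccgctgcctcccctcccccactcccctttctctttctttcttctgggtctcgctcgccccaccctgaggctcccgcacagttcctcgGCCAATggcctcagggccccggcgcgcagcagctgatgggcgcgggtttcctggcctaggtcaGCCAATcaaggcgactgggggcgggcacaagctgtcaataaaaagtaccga
The S100b promoter held TTGGC 3 times and CCAAT 2 times, that of Ntsr2 held TTGGC 1 time and CCAAT 0 times, and that of Glul held each 2 times. The next counts cover the first 250 bases of each listed promoter, which for Ntsr2 run past the first annotated transcript start. Of 11 listed promoters of 9 genes of the set 8 held TTGGC, against 41.5% of 32851 mouse promoters, and 6 held CCAAT, against 33.8%. The Glul promoter had 15 CpG dinucleotides and a GC content of 64.8%, whereas that of S100b had 2 and 53.6%, and all promoters had a median of 6 and 52.4%. Both TTGGC and CCAAT thus occurred in the promoters of a gene that was lower and of one that was not.

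Genes that work beside the set were described by role, and in each role a few were lower in CSD at an unadjusted p while none was higher or called. The shares of lower genes below are to be read against 6.52% of all genes and 10.02% of the genes at least as bright as Aldh1l1. Of 7 measured genes of glutamate, glutamine and GABA handling, 2 were lower at an unadjusted p in limma and 5 were not, with a median difference of −0.07. Slc38a3, which releases glutamine from astrocytes, had log2 values of 10.22 ± 0.09 in CSD mice and 10.46 ± 0.05 in HC mice (SD, n = 6 each). All 6 CSD mice lay below all HC mice for Slc38a3, at a difference of −0.24 (standard error 0.05, adjusted p = 0.132 from limma). Slc6a11, the GABA transporter GAT-3 of astrocytes, averaged 11.27 ± 0.05 in CSD mice and 11.39 ± 0.08 in HC mice (SD, n = 6 each), again without overlap (difference −0.12, adjusted p = 0.455 from limma). For Slc6a11 the highest CSD mouse, at 11.327, lay just under the lowest HC mouse, at 11.335. Slc38a3 and Slc6a11 are named because they had the smallest p of the 7, and the groups overlapped for the other 5. A full separation in this direction was found for 0.935% of all genes. The ranges of Slc1a2 and Glul overlapped, and whether these genes differed from each other in response was not tested.
Of 11 measured partners of the endfoot membrane, 2 were lower at an unadjusted p and 9 were not, with a median of −0.04. Hepacam (GlialCAM), the adhesion protein that binds Mlc1, was 9.91 ± 0.06 in CSD mice and 10.05 ± 0.07 in HC mice (SD, n = 6 each, difference −0.14, adjusted p = 0.313 from limma). Gpr37l1, an orphan receptor of astrocytes, had a difference of −0.13 (adjusted p = 0.552 from limma).
Of 7 measured ion pumps and acid-base partners, 2 were lower at an unadjusted p, with a median of −0.02. They were Slc12a2, the sodium, potassium and chloride cotransporter, at −0.23 (adjusted p = 0.455 from limma), and Atp1b2, a beta subunit of the sodium pump, at −0.11 (adjusted p = 0.589 from limma). Of 11 measured genes of folate, glycine and serine metabolism, 2 were lower at an unadjusted p, with a median of −0.05. Psat1, an enzyme of serine synthesis, was 10.45 ± 0.05 in CSD mice and 10.68 ± 0.07 in HC mice (SD, n = 6 each). The groups did not overlap for Psat1, at a difference of −0.23 (standard error 0.04, adjusted p = 0.105 from limma). Mthfd1l, a mitochondrial enzyme of folate metabolism, had a difference of −0.13 (adjusted p = 0.526 from limma).

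Among other markers of astrocytes the share of lower genes was near the background. All 30 were measured, 21 had a lower and 9 a higher mean, 2 were lower at an unadjusted p in limma (6.67%, against 6.52% of all genes) and the median difference was −0.04. Ednrb, the endothelin receptor B, had a difference of −0.26 (adjusted p = 0.241 from limma), and Pla2g7, a phospholipase, one of −0.10 (adjusted p = 0.462 from limma). The dimmest of the 30 averaged 7.94, above the system noise of 5.75. Of 19 measured genes of reactive astrocytes 15 had a higher mean and 4 a lower one, with a median of 0.05, where 57.1% of all genes had the lower mean. The dimmest of the 19 averaged 5.83, close to the system noise. At an unadjusted p under 0.05 in limma 1 of the 19 was higher, against 1.89% of all genes. This gene, Lcn2, a secreted lipocalin, had log2 values of 6.09, 7.69 and 9.03 in CSD mice, against 5.99, 6.20 and 6.52 in HC mice (lowest, median and highest). For Lcn2 4 of the CSD mice exceeded the HC mean and 2 did not, at a difference of 1.28 (adjusted p = 0.432 from limma). The study had already reported Lcn2 as its most raised gene from these same arrays, and also measured it by quantitative PCR in a subset of the samples. Osmr, the oncostatin M receptor, had a difference of 0.30 (adjusted p = 0.659 from limma).

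**Figure D3:**
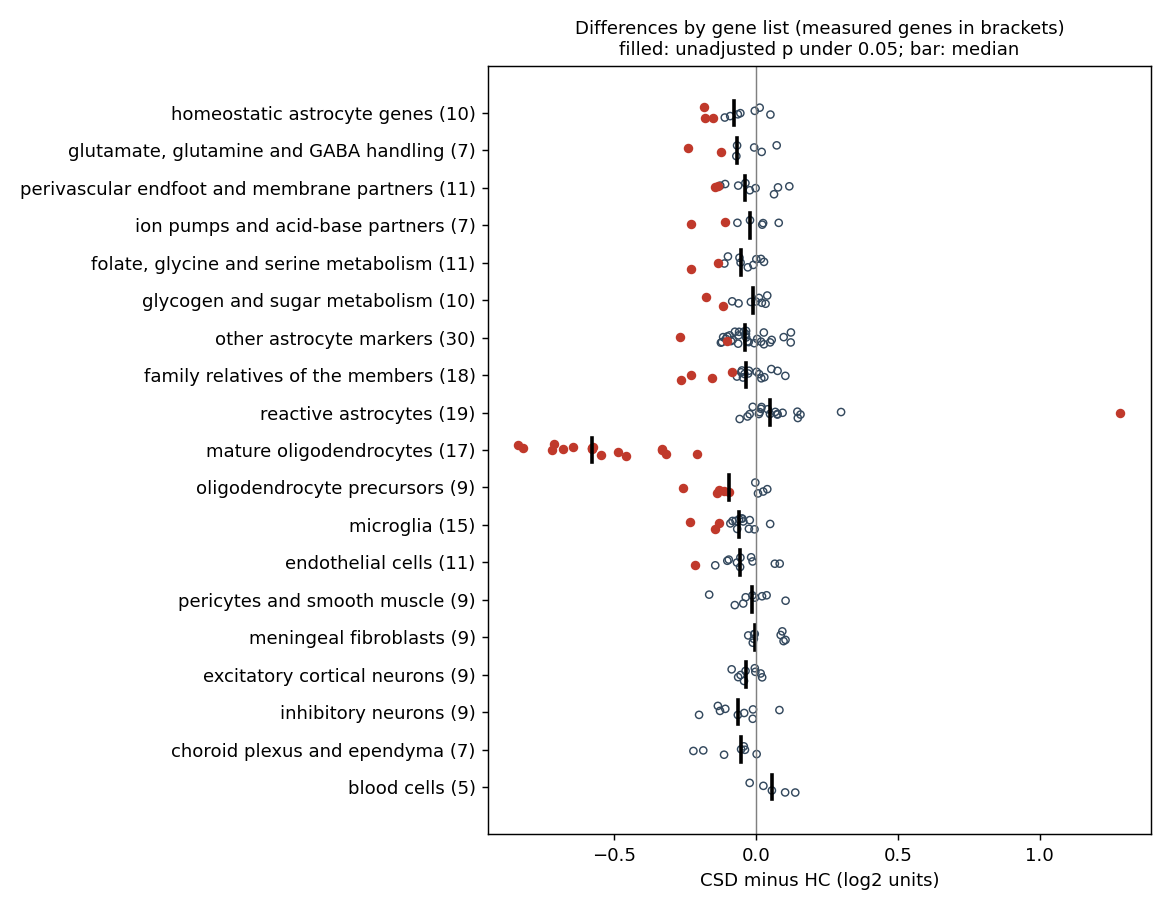
Differences in log2 units (CSD minus HC, horizontal axis) of all measured genes of each list, with the number measured in brackets. Filled points have an unadjusted p under 0.05 in limma and bars mark medians. The homeostatic astrocyte genes have a median of −0.08, the mature oligodendrocyte genes one of −0.58.

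Genes of oligodendrocytes were lower in the same comparison, with larger differences. All 17 measured genes of mature oligodendrocytes were lower at an unadjusted p in limma, against 6.52% of all genes, with a median of −0.58. In 10 of them the groups did not overlap, against 0.935% of all genes, while 0 passed the adjustment. The study had already reported most genes of this list as lower in CSD from these same arrays. These counts therefore describe the list and are not independent of that report. Gjc3, an oligodendrocyte connexin, had a difference of −0.68 (adjusted p = 0.0673 from limma) and Mog, a glycoprotein of myelin, one of −0.84 (adjusted p = 0.0986 from limma). The mean log2 level over the list ran between 9.13 and 9.60 on the CSD arrays, against 9.68 to 10.14 on the HC arrays, and no gene of it lay at system noise. Over the 10 homeostatic astrocyte genes the mean log2 level ran between 10.98 and 11.05 on the CSD arrays, against 10.99 to 11.17 on the HC arrays, so that these ranges overlapped. Within the HC group the order of the mice was not the same in both lists. HC replicate 4 had the lowest mean of the homeostatic astrocyte genes, 10.99, and the highest of the oligodendrocyte genes, 10.14, whereas HC replicate 2 had the highest astrocyte mean, 11.17, and the lowest oligodendrocyte mean, 9.68. The part of oligodendrocyte RNA in the S100b difference was not tested.

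**Figure D4:**
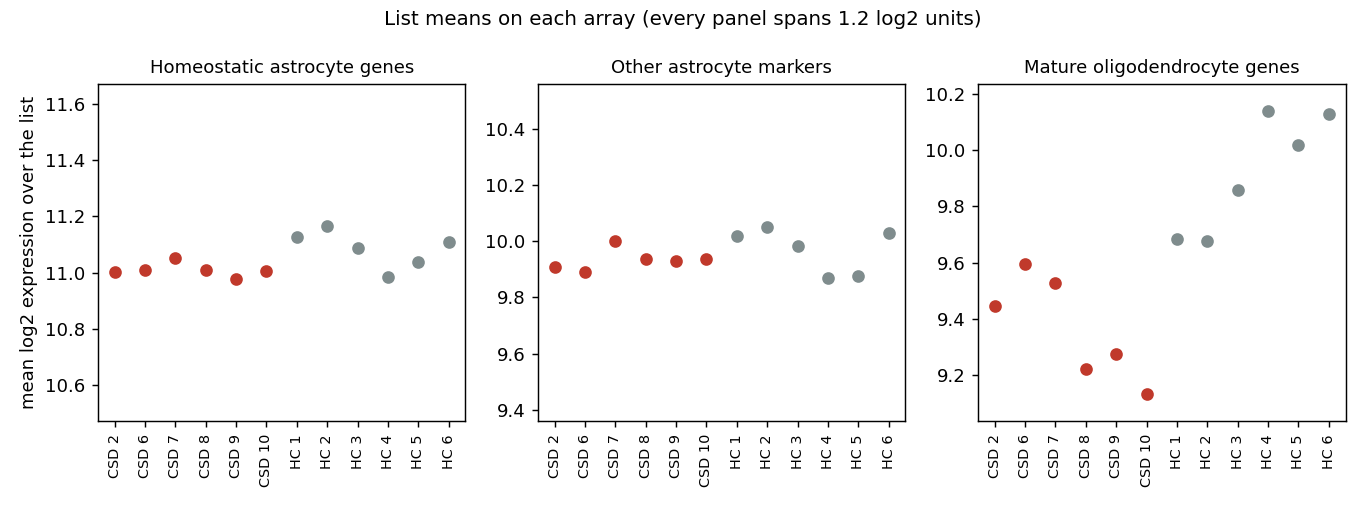
Mean log2 expression (vertical axis) over the homeostatic astrocyte genes, the other astrocyte markers and the mature oligodendrocyte genes on each array, CSD in red left of HC in grey, with every panel spanning 1.2 log2 units. The groups separate in the oligodendrocyte panel and overlap in both astrocyte panels.

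Of 9 genes of oligodendrocyte precursors 6 had a lower and 3 a higher mean, with a median of −0.09. The 3 with a higher mean were Pdgfra at 0.0081, Cspg4 at 0.04 and C1ql1 at 0.03. At an unadjusted p in limma 5 of the 9 were lower, against 6.52% of all genes, among them Bmp4 at −0.25 and Lhfpl3 at −0.13. Against the same share, of 15 measured genes of microglia 3 were lower at an unadjusted p, with a median of −0.06, among them the purine receptors P2ry13 at −0.23 and P2ry12 at −0.14. Of 11 measured genes of endothelial cells, which the astrocyte endfeet contact, 1 was lower at an unadjusted p, with a median of −0.05. This gene was Tek, the angiopoietin receptor, at −0.21 (adjusted p = 0.313 from limma), and Slco1a4 followed at −0.14. In the lists of pericytes and smooth muscle, meningeal fibroblasts, excitatory neurons, inhibitory neurons, choroid plexus and ependyma, and blood cells 0 of 9, 0 of 9, 0 of 9, 0 of 9, 0 of 7 and 0 of 5 measured genes had an unadjusted p under 0.05 in limma. Their medians were −0.01, −0.0034, −0.04, −0.06, −0.05 and 0.06.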

How the data were processed

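Expression was measured on Affymetrix Mouse Gene 1.0 ST arrays, 1 per mouse, from 200 ng of total RNA of the mPFC. The brains were perfused with saline, and a white matter tract, the forceps minor, bounded the dissection. Each sample was taken as 1 mouse, and p-values measure only the spread between these samples. Values in the deposited table are log2 expression, which the authors computed by RMA with the Expression Console of Affymetrix (versions not given in the sources used here). This method subtracts background, brings the arrays to 1 distribution and combines the probes of each probe set. In the deposited values the medians of the arrays still ran from 7.50 to 7.69. The number of arrays limits the precision, and arrays have no read depth.

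The deposited table holds 35556 probe sets. System noise, to which the authors floored the data, has no stated value, and the 20th percentile, 5.75, took its place. This left 29838 probe sets with at least 1 value above it, and 4.67% of their values were set to it. By the platform annotation 21789 probe sets name 1 gene, 1621 name several and 12146 name no gene, and only those of the first kind named a gene here. All 10 genes matched a RefSeq gene by Entrez identifier under the same symbol. CSD and HC, taken from the sample titles, were compared with limma 3.58.1 in R 4.3.3 (two-sided, Benjamini-Hochberg over the probe sets kept, no covariate, no array left out). The methods' t-test, which is Welch's form, was an alternative. Exact permutation tests over all 924 splits used scipy 1.17.1, and figures matplotlib 3.10.9. The genes of the set and the gene lists were chosen with earlier results of these data known, so that counts over them are descriptions and no test was run on a list. Genes named beside the set were the 2 with the smallest p of each list and the 5 with the most similar profile. Listed genes with no probe set of their own were not analysed here.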

Additional observations from a re-analysis of the deposited data

How the results depend on the processing

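The count of genes of the set called stayed at 0 under all alternatives run, and the count of lower genes at an unadjusted p ran between 2 and 4 when 1 mouse was left out and was 2 without HC replicates 2 and 6 together. The median difference over the 10 genes was −0.10 to −0.06 when 1 mouse was left out and −0.04 without HC replicates 2 and 6 together, against −0.08 over all mice. S100b and Ntsr2 kept an unadjusted p under 0.05 in limma or the methods' t-test under each of 24 alternatives, Aqp4 in 19 of them. The smallest adjusted p of any of the 10 genes over the alternatives was 0.240, for S100b with arrays centred on their medians. The sign turned for Aldoc alone, whose difference ran between −0.0194 and 0.0063 when 1 mouse was left out. It was above 0 when the mouse was CSD replicate 6 (0.0031), 7 (0.00016) or 10 (0.0063) or HC replicate 2 (0.0023) or 3 (0.0049), and was 0.0052 without HC replicates 2 and 6. Replicate numbers 2 and 6 occur in both groups, and nothing in the labels says that they pair mice. The deviations of the mice with these numbers correlated at −0.21 and −0.035. With the number as a replicate block, the count of genes called was 0, that of lower genes at an unadjusted p was 3 and of higher ones 0, and the median difference was −0.07. Over all genes 0 were called as reported, against 21 when probe sets with 1 gene alone were tested, 14 when the variance followed a trend and was estimated robustly, 1 after quantile normalization and 24 with probe sets averaged per gene, none of them of the set. The median difference of all genes was −0.010 as reported, −0.023 with arrays centred on their medians and −0.009 after quantile normalization. Without HC replicate 2 it was 0.010, and without HC replicates 2 and 6 together 0.013. With 6 mice a group, the 95% intervals of the 10 genes spanned 0.12 to 0.31 log2 units, which bounds the differences that could be seen.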

Other observations

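Family relatives of the homeostatic astrocyte genes, many of them expressed in other cells, were also measured. Of 18 relatives 4 were lower at an unadjusted p in limma, against 6.52% of all genes, and 0 higher, with a median difference of −0.03, and 0 passed the adjustment. Ntsr1, the high-affinity neurotensin receptor, which cortical neurons express, averaged 8.17 ± 0.15 in CSD mice and 8.40 ± 0.18 in HC mice (SD, n = 6 each). The difference of Ntsr1 was −0.23 (adjusted p = 0.487 from limma), in the same direction as that of Ntsr2, and every CSD mouse lay below the HC mean. S100a16, a calcium-binding relative of S100b, averaged 9.90 ± 0.08 in CSD mice and 10.05 ± 0.09 in HC mice (SD, n = 6 each, difference −0.15, adjusted p = 0.436 from limma).

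Of 10 measured genes of glycogen and sugar metabolism, a store of energy that the brain keeps mainly in astrocytes, 5 had a lower mean and 5 a higher mean, and 2 were lower at an unadjusted p in limma, against the same 6.52%, with a median difference of −0.0083. Pdk4, which restrains the entry of pyruvate into mitochondria, averaged 8.28 ± 0.13 in CSD mice and 8.45 ± 0.09 in HC mice (SD, n = 6 each, difference −0.17, adjusted p = 0.457 from limma). Gys1, the glycogen synthase of muscle and brain, averaged 8.36 ± 0.04 in CSD mice and 8.48 ± 0.09 in HC mice (SD, n = 6 each, difference −0.12, adjusted p = 0.465 from limma).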
